A study of Arabidopsis thaliana with 11 samples.

Results

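The thalianol and marneral cluster genes of Arabidopsis thaliana are 7 genes on chromosome 5 that encode enzymes of triterpene synthesis in the root, out of 28495 genes in each of the authors' deposited tables. The thalianol cluster has 4 members: THAS1 (AT5G48010), CYP708A2 (AT5G48000), CYP705A5 (AT5G47990) and AT5G47980. The marneral cluster has 3: MRN1 (AT5G42600), CYP71A16 (AT5G42590) and CYP705A12 (AT5G42580). The genes were taken by locus identifier, and they were selected on the fold changes in these very tables, so their values are given as a description and nothing is inferred from how many of them changed.

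Root tip RNA was sequenced in 11 samples of 4 groups: crn-3 with 2 samples, clv2-gabi with 3, cle40-2 with 3 and wild-type Col-0 with 3. All plants had the Col-0 background, and no group carried a further allele or treatment per the labels; the labels state no plant age. CLE40 encodes a secreted signalling peptide. CLV2 is a receptor-like protein that lacks an intracellular kinase domain, and its partner CRN, or CORYNE, resembles a kinase and spans the membrane. Each mutant was set against the same Col-0 samples in a table of its own, to ask how CLE40 on one side and CRN with CLV2 on the other act in root meristem growth.

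The authors' deposited tables hold group means of normalised read counts, a fold change (mutant over Col-0) and an adjusted p-value, with no value per sample, so no spread between replicates can be given for any gene and depth per sample is unknown. A group mean could be carried by 1 of its libraries, most of all in crn-3 with its 2. Calls of change follow the adjusted p of the authors, with a threshold of 0.05. An adjusted p printed as 0.000 rounds to 0 at 3 decimals. Transcript levels of the mutated genes did not check the labels, because CLV2 had a mean of 4248 in clv2-gabi against 198 in Col-0, CRN had 111 in crn-3 against 91 in Col-0, and CLE40 had 3 in cle40-2 against 1 in Col-0, all from the authors' deposited tables.

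Triterpenes are made from squalene, which is oxidised and then folded into a ring skeleton by an oxidosqualene cyclase; the skeleton is next decorated by cytochrome P450 enzymes, acyltransferases and dehydrogenases. In Arabidopsis the genes for successive steps of some of these pathways lie side by side, as metabolic gene clusters, and the thalianol and marneral clusters are known for their activity in roots. THAS1 is thalianol synthase, the cyclase that makes the thalianol skeleton; CYP708A2 is a thalianol hydroxylase and CYP705A5 introduces a double bond into thalian-diol. MRN1 is marneral synthase and CYP71A16 is a marneral oxidase. AT5G47980 is annotated as an HXXXD-type acyltransferase family protein, and CYP705A12 as a P450 of the same subfamily as CYP705A5.

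In the TAIR10.1 annotation the thalianol cluster spanned chr5:19428888-19461706 and the marneral cluster chr5:17023502-17058245, which are 32.8 kb and 34.7 kb long and 2.37 Mb apart. THAS1 and MRN1 each had 14 exons, and their coding sequences were identical at 76.4% of aligned positions. CYP705A5 and CYP705A12 had 2 exons each and 74.6% identity. Within single exons, every 50-base window occurred only once in the genome for 6 of the 7 members, and 96.8% of windows did for CYP708A2. Windows across exon junctions, exons shorter than 50 bases and inexact matches were not checked. The sources used here do not give how reads that match several genes were counted.

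Of the promoters, 4 are shown, because the results turn on these genes: AT5G47980 was higher in crn-3 and lower in cle40-2, THAS1 is the cyclase that starts the thalianol pathway, and MRN1 and CYP705A12 moved in opposite directions in cle40-2. Each is the 250 bases before the annotated gene start in TAIR10.1 (RefSeq), 5′ to 3′ on the strand of the gene. Capitals mark TATAAA or its reverse complement TTTATA.
AT5G47980, chr5:19428638-19428887, plus strand: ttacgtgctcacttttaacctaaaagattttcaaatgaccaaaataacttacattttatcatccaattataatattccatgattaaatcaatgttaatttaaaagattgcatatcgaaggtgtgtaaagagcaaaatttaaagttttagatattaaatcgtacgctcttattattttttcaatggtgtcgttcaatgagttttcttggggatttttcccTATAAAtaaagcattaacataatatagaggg
THAS1, chr5:19456587-19456836, plus strand: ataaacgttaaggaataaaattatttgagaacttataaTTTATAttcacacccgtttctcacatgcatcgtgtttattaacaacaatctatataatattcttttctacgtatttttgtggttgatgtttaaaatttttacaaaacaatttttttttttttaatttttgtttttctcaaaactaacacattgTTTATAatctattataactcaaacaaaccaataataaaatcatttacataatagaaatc
MRN1, chr5:17053203-17053452, plus strand: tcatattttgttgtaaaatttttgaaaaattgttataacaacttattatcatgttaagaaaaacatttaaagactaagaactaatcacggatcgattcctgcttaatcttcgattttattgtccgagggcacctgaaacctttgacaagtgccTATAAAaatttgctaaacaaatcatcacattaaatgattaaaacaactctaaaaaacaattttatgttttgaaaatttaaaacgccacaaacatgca
CYP705A12, chr5:17025362-17025611, minus strand: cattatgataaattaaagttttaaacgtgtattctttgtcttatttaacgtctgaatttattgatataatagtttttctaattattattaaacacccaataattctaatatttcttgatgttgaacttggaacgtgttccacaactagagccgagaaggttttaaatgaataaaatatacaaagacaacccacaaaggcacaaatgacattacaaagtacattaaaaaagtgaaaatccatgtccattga
AT5G47980 had TATAAA on its own strand 31 to 26 bases before the start. MRN1 had TATAAA 97 to 92 bases before the start, THAS1 had only the reverse complement, and CYP705A12 had neither. On either strand, TATAAA was in 47.3% of the 27549 promoters of the annotation and in 5 of the 7 members. Of 6 other motifs searched on both strands, the L1 box TAAATGTA (2.99% of all promoters), the G-box CACGTG (6.46%), the GCC box GCCGCC (1.88%) and the telobox AAACCCTA (4.47%) were in none of the 7. The W-box, searched as TTGACC or TTGACT (28.4%), was in CYP71A16 and the repeat GAGAGA (20.5%) in CYP708A2. GC content was 20.8% for THAS1 to 31.6% for CYP71A16, against a median of 31.2% over all promoters. A motif match is a description of the letters in this window and no evidence of binding.

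In Col-0 the thalianol cyclase and both thalianol P450 genes were among the more abundant transcripts of the root tip, while AT5G47980 was not. Per kb of exon, from the means in the authors' deposited cle40-2 table, the Col-0 level was 3031 for CYP705A5, 1376 for THAS1 and 1311 for CYP708A2. These levels exceeded those of 94.8%, 88.9% and 88.4% of the 21176 genes above 0 in Col-0. CYP71A16 followed at 782 per kb and MRN1 at 226 per kb, in Col-0 of the same deposited table by the authors. The lowest Col-0 levels in the authors' deposited cle40-2 table were 156 per kb for AT5G47980, above 46.9% of the genes, and 60.8 per kb for CYP705A12, above 32.0%. The order was the same in the Col-0 column of the other 2 tables, which come from the same samples. THAS1 and CYP708A2 stood close together, and with no value per sample their order cannot be set against replicate spread. Within each cluster the transcripts thus differed in level, from 156 to 3031 per kb for thalianol genes and from 60.8 to 782 per kb for marneral genes.

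**Figure D1:**
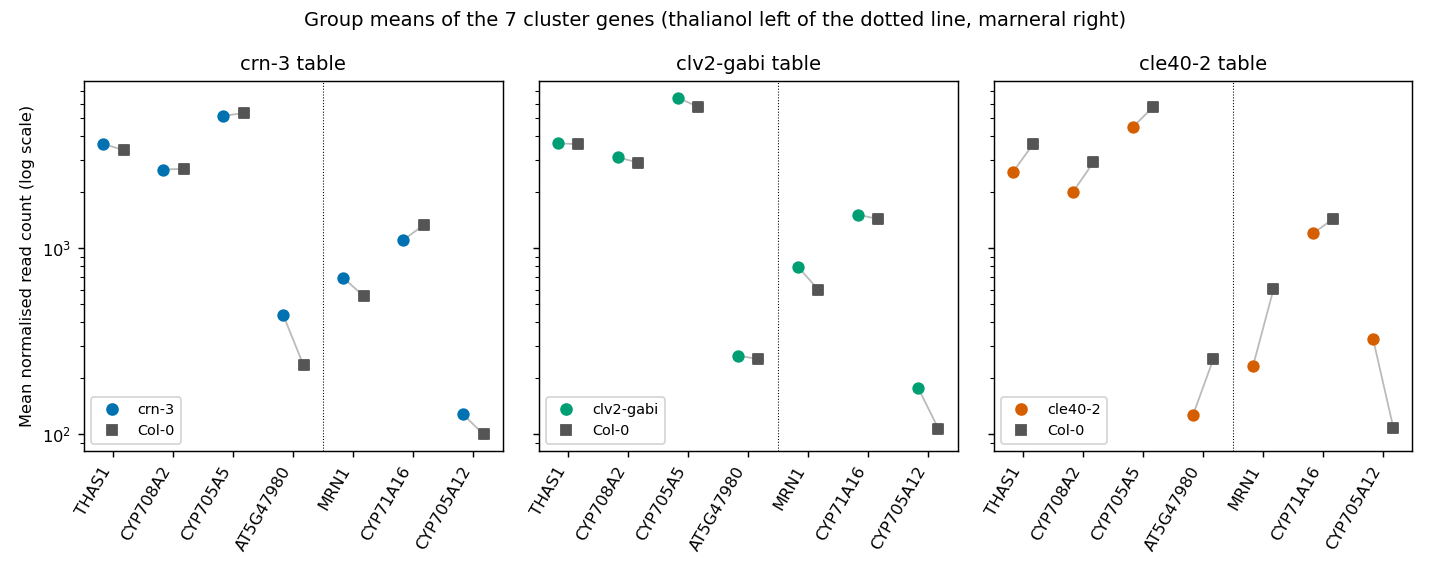
Group means of the 7 cluster genes in the authors' deposited tables (y axis, mean normalised read count, log scale), one panel per table, with the mutant as a circle left of Col-0 as a square; no error bars are drawn because the tables hold no value per sample. In the cle40-2 panel CYP705A12 alone lies higher in the mutant (327 in cle40-2, 108 in Col-0), and the other 6 genes lie lower in the mutant.

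In cle40-2, 4 of the 7 genes were called lower and 1 higher than in Col-0. Over all genes tested in cle40-2, 1.94% were called lower and 3.21% higher, 5.15% in all, and since the members were selected on these values nothing is read from their share against this background. The cyclase THAS1 had a mean of 2578 in cle40-2 against 3654 in Col-0, a fold of 0.71 with an adjusted p of 0.016 in the authors' deposited table. The marneral cyclase MRN1 had 233 in cle40-2 against 602 in Col-0, a fold of 0.39 with an adjusted p of 0.000 in the authors' deposited table. Both cyclase transcripts were thus lower, MRN1 by the wider margin. In bulk root tips, fewer cells of a type and less RNA per cell cannot be told apart.

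Among the P450 genes in cle40-2, CYP708A2 was at 2016 against 2903 in Col-0, a fold of 0.69 with an adjusted p of 0.006 in the authors' deposited table. CYP705A5, the most abundant of the 7, was at 4501 in cle40-2 against 5789 in Col-0, a fold of 0.78 that did not pass (adjusted p of 0.106 in the authors' deposited table). CYP71A16 was at 1204 in cle40-2 against 1445 in Col-0, a fold of 0.83 that did not pass either (adjusted p of 0.474 in the authors' deposited table). CYP705A12 went the other way. It was at 327 in cle40-2 against 108 in Col-0, a fold of 3.02 with an adjusted p of 0.000 in the authors' deposited table. The acyltransferase family gene AT5G47980 was at 127 in cle40-2 against 255 in Col-0, a fold of 0.50 with an adjusted p of 0.000 in the authors' deposited table.

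The median fold of the 4 thalianol genes in cle40-2 was 0.700 and that of the 3 marneral genes 0.833. Over the 15993 genes with a mean of at least 50 it was 0.997. These medians were taken on log2 changes of the means in the authors' deposited table, with a pseudocount of 1. Summed over the 4 thalianol genes, the means came to 9222 in cle40-2 against 12601 in Col-0, a ratio of 0.732 from the authors' deposited table. The marneral median describes its 3 genes poorly, as their folds ran from 0.39 to 3.02 in the authors' deposited table.

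Set against genes of similar abundance, those with a Col-0 mean within 2-fold of the member's, the cle40-2 folds lay at differing depths. MRN1 at 0.39 in the authors' deposited table lay below the central 95% of folds of such genes (0.71 to 1.34), as did AT5G47980 at 0.50 (0.62 to 1.48). CYP708A2 at 0.69 (0.76 to 1.26) and THAS1 at 0.71 (0.75 to 1.27) lay just below their ranges in the authors' deposited table. CYP705A5 at 0.78 (0.76 to 1.27) and CYP71A16 at 0.83 (0.75 to 1.29) lay inside them, in the authors' deposited table. CYP705A12 at 3.02 lay above its range of 0.51 to 1.85 in the authors' deposited table. This range holds real changes of other genes as well as error, so it does not measure the error of any 1 gene.

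**Figure D2:**
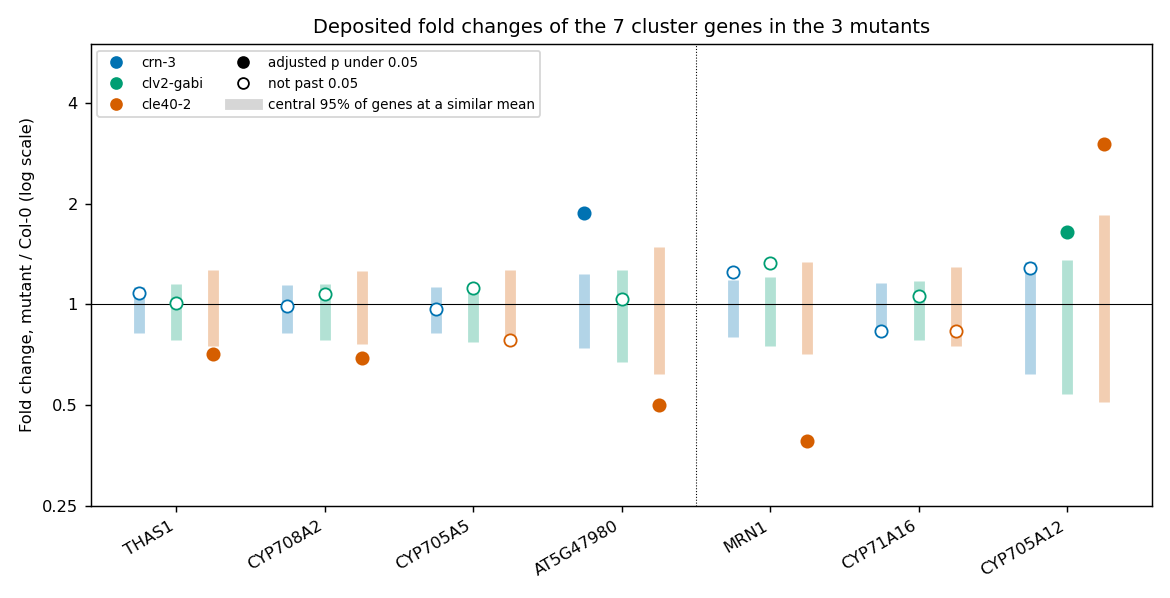
Deposited fold changes of the 7 cluster genes (y axis, mutant over Col-0, log scale) in crn-3, clv2-gabi and cle40-2, from the authors' deposited tables; filled circles passed an adjusted p of 0.05, open circles did not, and each pale bar spans the central 95% of folds of genes at a similar Col-0 mean. The cle40-2 circles run from 0.39 for MRN1 to 3.02 for CYP705A12, and the crn-3 circle of AT5G47980 stands at 1.87.

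In crn-3, 1 of the 7 genes was called, and it was higher; over all genes tested there, 0.189% were called higher and 0.250% lower, 0.439% in all. AT5G47980 had a mean of 440 in crn-3 against 235 in Col-0, a fold of 1.87 with an adjusted p of 0.001 in the authors' deposited table. Its fold lay above the central 95% of genes at a similar mean, 0.74 to 1.23, while its direct neighbours in the cluster were near 1. THAS1 was at 3659 in crn-3 against 3373 in Col-0, a fold of 1.08 in the authors' deposited table. CYP708A2 was at 2655 in crn-3 against 2680 in Col-0, a fold of 0.99 in the authors' deposited table. CYP705A5 was at 5157 in crn-3 against 5343 in Col-0, a fold of 0.97 in the authors' deposited table. The thalianol cyclase and both P450 genes thus had an adjusted p of 1.000 in the authors' deposited table.

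The marneral genes in crn-3 did not pass the threshold, with an adjusted p of 1.000 for each in the authors' deposited table. MRN1 was at 696 in crn-3 against 555 in Col-0 (fold 1.25) in the authors' deposited table. CYP71A16 was at 1108 in crn-3 against 1333 in Col-0 (fold 0.83) in the authors' deposited table. CYP705A12 was at 128 in crn-3 against 100 in Col-0 (fold 1.28) in the authors' deposited table. MRN1 lay just above the central 95% of genes at a similar mean (0.80 to 1.18), and the other marneral genes lay within or at the edge of theirs. The median fold was 1.04 for thalianol genes and 1.25 for marneral genes in crn-3, against 1.00 over the 15773 genes with a mean of at least 50, from the authors' deposited table.

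In clv2-gabi, 1 of the 7 genes was called, again higher, and it was a marneral gene. Over all genes tested there, 0.300% were called higher and 1.59% lower, 1.89% in all. CYP705A12 had a mean of 178 in clv2-gabi against 107 in Col-0, a fold of 1.65 with an adjusted p of 0.016 in the authors' deposited table; similar genes spanned 0.54 to 1.36. MRN1 was at 794 in clv2-gabi against 599 in Col-0, a fold of 1.33 that did not pass (adjusted p of 0.251 in the authors' deposited table) but lay above the central 95% of genes at a similar mean (0.75 to 1.21). CYP71A16 was at 1518 in clv2-gabi against 1437 in Col-0, a fold of 1.06 with an adjusted p of 1.000 in the authors' deposited table. The 4 thalianol genes each had an adjusted p of 1.000 in clv2-gabi. THAS1 was at 3671 in clv2-gabi against 3638 in Col-0 (fold 1.01) in the authors' deposited table. CYP708A2 was at 3088 in clv2-gabi against 2890 in Col-0 (fold 1.07) in the authors' deposited table. CYP705A5 was at 6451 in clv2-gabi against 5762 in Col-0 (fold 1.12) in the authors' deposited table. These 3 folds lay inside the central 95% of genes at a similar mean. AT5G47980, the gene called in both other mutants, was at 265 in clv2-gabi against 254 in Col-0 (fold 1.04) in the authors' deposited table. The median fold, taken on the log2 changes with a pseudocount of 1, was 1.06 for thalianol genes and 1.32 for marneral genes in clv2-gabi. Over the 15905 genes with a mean of at least 50 it was 1.01, from the means in the authors' deposited table.

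Because the 3 comparisons share their Col-0 samples, the members' values are set side by side and their likeness between mutants is not scored. AT5G47980 had folds of 1.87 in crn-3, 1.04 in clv2-gabi and 0.50 in cle40-2 in the authors' deposited tables. MRN1 had folds of 1.25 in crn-3, 1.33 in clv2-gabi and 0.39 in cle40-2 in the authors' deposited tables. CYP705A12 was above 1 in each, at 1.28 in crn-3, 1.65 in clv2-gabi and 3.02 in cle40-2 in the authors' deposited tables. Whether the change of any gene differed between mutants was not tested, since the tables hold no value per sample.

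The balance of transcripts within a cluster was described by ratios of per-kb levels, from the means in the authors' deposited tables. CYP705A12 over MRN1 was 2.11 in cle40-2 against 0.270 in Col-0, so that the P450 transcript exceeded that of the marneral cyclase in cle40-2 and lay below it in Col-0. The same ratio was 0.276 in crn-3 against 0.271 in Col-0, and 0.337 in clv2-gabi against 0.268 in Col-0. CYP71A16 over MRN1 was 7.47 in cle40-2 against 3.47 in Col-0, and 2.30 in crn-3 against 3.47 in Col-0. The ratio of the 2 marneral P450 genes to their cyclase was thus higher in cle40-2 than in Col-0 for both. In the thalianol cluster, the hydroxylase transcript stayed close to that of the cyclase: CYP708A2 over THAS1 was 0.938 in cle40-2 against 0.953 in Col-0. CYP705A5 over THAS1 was 2.43 in cle40-2 against 2.20 in Col-0. AT5G47980 over THAS1 was 0.196 in crn-3 against 0.114 in Col-0, and 0.0803 in cle40-2 against 0.114 in Col-0. By per-kb level, CYP705A12 was the 5th of the 7 genes in cle40-2 (184 per kb) and the 7th in Col-0 (60.8 per kb). These ratios carry no test.

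The genes around the clusters were examined next, 10 annotated protein-coding genes on each side. Among all genes tested, 0.439% were called in crn-3, 1.89% in clv2-gabi and 5.15% in cle40-2. Few or no calls among so few neighbours therefore say little. Around the thalianol cluster no neighbour was called in the authors' deposited tables, among 19 with an adjusted p in crn-3, 20 in clv2-gabi and 19 in cle40-2. Their median fold in cle40-2 was 0.970, and the folds ran from 0.60 to 1.32 among the 17 with a mean of at least 10. AT5G47950, an HXXXD-type acyltransferase family gene just outside the cluster whose coding sequence was 60.6% identical to that of AT5G47980, was at 587 in cle40-2 against 605 in Col-0 (fold 0.97) in the authors' deposited table. It was at 527 in crn-3 against 558 in Col-0 (fold 0.94) in the authors' deposited table. Around the marneral cluster 1 gene was called in cle40-2: AT5G42490, annotated as an ATP-binding microtubule motor family protein, at 30 in cle40-2 against 8 in Col-0 (fold 3.65, adjusted p of 0.006 in the authors' deposited table). In clv2-gabi 1 was called: AT5G42510, annotated as a dirigent-like family protein, at 10 in clv2-gabi against 38 in Col-0 (fold 0.25, adjusted p of 0.000 in the authors' deposited table). In crn-3 no marneral neighbour was called. Of the 20 marneral neighbours, 14 had an adjusted p in crn-3, 15 in clv2-gabi and 14 in cle40-2. Their median fold in cle40-2 was 1.08, over the 12 with a mean of at least 10.

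**Figure D3:**
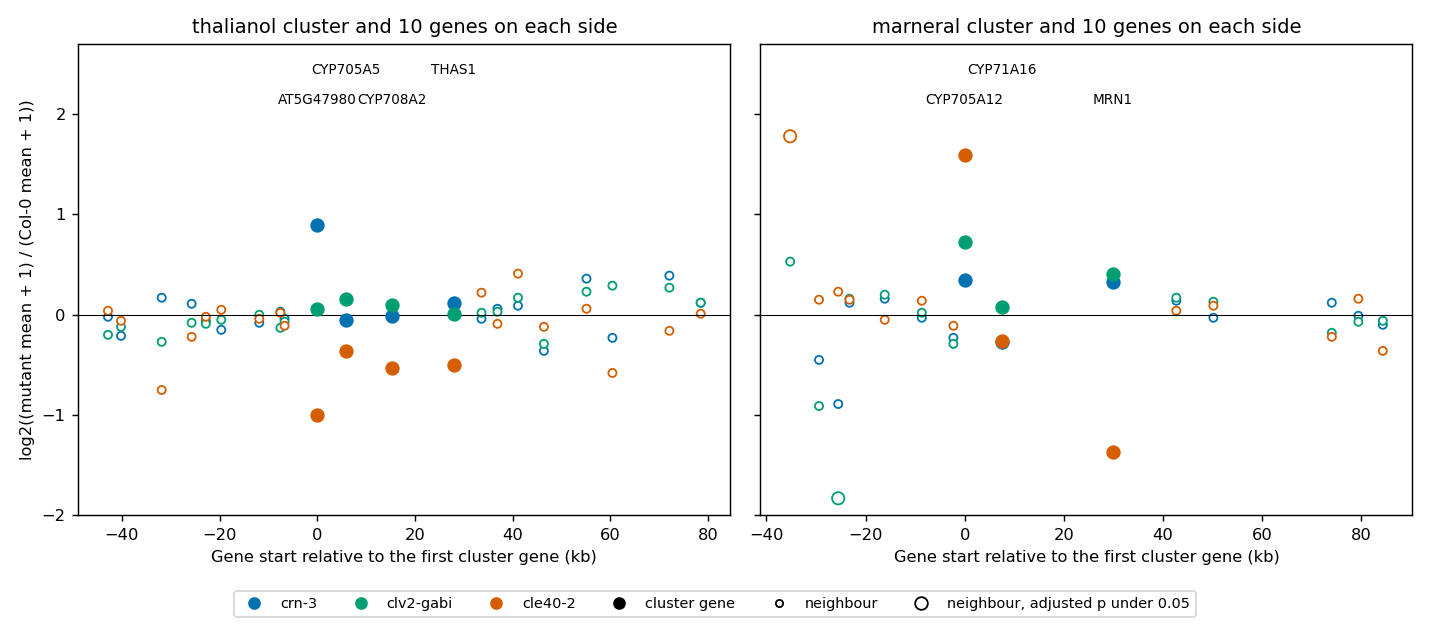
Changes along the clusters: log2((mutant mean + 1) / (Col-0 mean + 1)) from the authors' deposited tables on the y axis against the distance in kb from the start of the first cluster gene, for cluster genes (filled) and neighbours with a mean of at least 10 (open). Thalianol genes in cle40-2 lie at or below -0.36 between neighbours with a median of -0.04, and the marneral genes in cle40-2 spread from -1.37 for MRN1 to 1.59 for CYP705A12.

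The list of further thalianol tailoring candidates had 3 genes, placed there as enzymes reported to act on thalianol in Arabidopsis, while the annotation names only their families. In cle40-2, 2 of the 3 fell. SDR4 (AT3G29250), a short-chain dehydrogenase reductase on chromosome 3, was at 1247 in cle40-2 against 2909 in Col-0, a fold of 0.43 with an adjusted p of 0.000 in the authors' deposited table. AT1G66800, an NAD(P)-binding Rossmann-fold superfamily gene on chromosome 1, was at 531 in cle40-2 against 1287 in Col-0, a fold of 0.41 with an adjusted p of 0.000 in the authors' deposited table. The remaining gene is AT5G47950, given above. None of the 3 was called in crn-3 or clv2-gabi: SDR4 had folds of 0.96 in crn-3 and 0.91 in clv2-gabi, and AT1G66800 had 0.97 in crn-3 and 1.05 in clv2-gabi, in the authors' deposited tables. The 2 genes that fell thus lie away from the cluster. None of the 10 genes on either side of SDR4 or of AT1G66800 was called in any mutant in the authors' deposited tables. The share called among all genes tested was 0.439% in crn-3, 1.89% in clv2-gabi and 5.15% in cle40-2. No call among so few neighbours therefore says little. Around SDR4, 18 of the 19 genes present had an adjusted p in cle40-2, and 16 had one in crn-3 and in clv2-gabi. Around AT1G66800, 16 of 20 had one in each mutant. Among neighbours with a mean of at least 10, median folds in cle40-2 were 0.973 for 14 around SDR4 and 1.02 for 8 around AT1G66800.

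Among the 12 other oxidosqualene cyclases in cle40-2, 1 rose and 1 fell in the authors' deposited table, of 10 with an adjusted p. Of all genes tested in cle40-2, 3.21% were called higher and 1.94% lower, and nothing is read from these small counts. LAS1, lanosterol synthase, was at 128 in cle40-2 against 215 in Col-0 (fold 0.59, adjusted p of 0.008 in the authors' deposited table). BARS1, baruol synthase, was at 52 in cle40-2 against 21 in Col-0 (fold 2.48, adjusted p of 0.016 in the authors' deposited table). CAS1, cycloartenol synthase, which feeds the plant's sterols, was the most abundant at 6384 in cle40-2 against 7531 in Col-0, a fold of 0.85 that did not pass (adjusted p of 0.614 in the authors' deposited table). The lupeol synthase LUP1 was at 19 in cle40-2 against 42 in Col-0 (fold 0.46, adjusted p of 0.112 in the authors' deposited table). LUP2, BAS (beta-amyrin synthase) and CAMS1 (camelliol synthase) had folds of 0.96, 1.31 and 0.86 in cle40-2 in the authors' deposited table and did not pass. PEN1 was at 5 in cle40-2 against 2 in Col-0, and LUP5, PEN3, PEN6 and PEN7 were listed at 0 in both groups, in the authors' deposited cle40-2 table. None of the cyclases was called in crn-3, of 8 with an adjusted p, or in clv2-gabi, of 10, in the authors' deposited tables. With 0.439% of all genes tested called in crn-3 and 1.89% in clv2-gabi, no call there says little.

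The shared precursor pathway was listed next. Of 20 genes from the mevalonate pathway to squalene epoxidation, 19 had an adjusted p, and 1 of them was called in cle40-2. Over all genes tested in cle40-2, 5.15% were called, so nothing is read from this count. The gene called, which was lower, was SQP2 (AT5G24140), a squalene monooxygenase. SQP2 was at 42 in cle40-2 against 120 in Col-0 (fold 0.35, adjusted p of 0.000 in the authors' deposited table). It also fell in clv2-gabi, at 58 against 120 in Col-0 (fold 0.48, adjusted p of 0.000 in the authors' deposited table). In crn-3 it was at 60 against 111 in Col-0, a fold of 0.54 that did not pass (adjusted p of 0.186 in the authors' deposited table). The median fold of the list was 0.994 in crn-3, 0.952 in clv2-gabi and 0.966 in cle40-2 in the authors' deposited tables. None of 14 sterol synthesis genes and none of 15 chromatin regulators was called in any mutant in the authors' deposited tables. Over all genes tested, 0.439% were called in crn-3 and 1.89% in clv2-gabi, so no call in lists this short says little. The sterol gene CYP710A1 was at 44 in clv2-gabi against 78 in Col-0 (fold 0.56, adjusted p of 0.050 in the authors' deposited table). Median folds in cle40-2 were 0.964 for sterol synthesis and 0.995 for chromatin regulators.

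Of 2 further triterpene clusters, the arabidiol and baruol cluster on chromosome 4 had 3 of 10 genes that rose in cle40-2 in the authors' deposited table. Of all genes tested in cle40-2, 3.21% were called higher. The list was chosen with earlier results known, so nothing is read from its count. AT4G15390, annotated as an HXXXD-type acyltransferase family protein, was at 752 in cle40-2 against 296 in Col-0 (fold 2.54, adjusted p of 0.000 in the authors' deposited table). The P450 gene CYP702A3 was at 37 in cle40-2 against 9 in Col-0 (fold 4.0, adjusted p of 0.001 in the authors' deposited table), and the third was BARS1. None of these 10 genes was called in crn-3 or clv2-gabi in the authors' deposited tables. With 0.439% of all genes tested called in crn-3 and 1.89% in clv2-gabi, that absence says little. The 5 tirucalladienol cluster genes summed to a mean of at most 1 in every group of the authors' deposited tables.

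**Figure D4:**
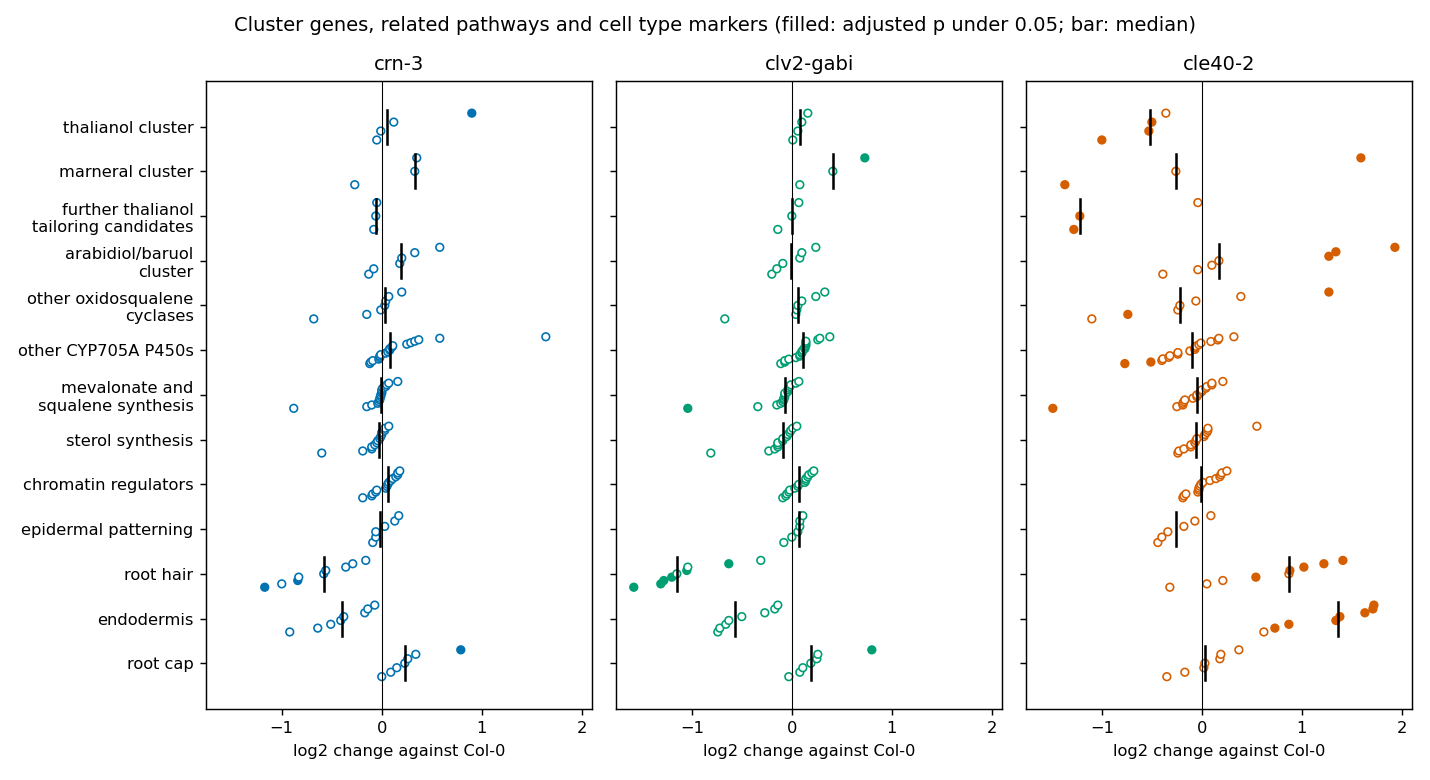
Log2 change against Col-0 (x axis, with a pseudocount of 1) of every gene with a mean of at least 10 in each list that holds such genes (rows), from the authors' deposited tables, for crn-3, clv2-gabi and cle40-2; filled circles passed an adjusted p of 0.05 and the vertical bar is the list's median. In cle40-2 the thalianol genes have a median of -0.51 and the further tailoring candidates -1.22, while endodermis markers have a median of 1.36.

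Markers of several root cell types moved with the mutants, and their part in the cluster genes' values was not tested. For comparison, 0.439% of all genes tested were called in crn-3, 1.89% in clv2-gabi and 5.15% in cle40-2. No call in a list this short therefore says little. By direction, 0.250% were called lower in crn-3, 1.59% lower in clv2-gabi and 3.21% higher in cle40-2. Of 6 epidermal patterning genes none was called in any mutant in the authors' deposited tables. Their summed mean was 3629 in cle40-2 against 4277 in Col-0 (ratio 0.848), 4030 in crn-3 against 3945 in Col-0, and 4438 in clv2-gabi against 4255 in Col-0, from the authors' deposited tables. WER, a regulator of the non-hair cell fate, was at 956 in cle40-2 against 1296 in Col-0, a fold of 0.74 that did not pass (adjusted p of 0.076 in the authors' deposited table). GL2, which acts downstream of WER, had a fold of 0.76 in cle40-2 that did not pass (adjusted p of 0.217 in the authors' deposited table). These were the lowest folds of the list in cle40-2. MYB23 had 0.79, CPC 0.88, EGL3 0.95 and TTG1 1.06 in the authors' deposited table. Of 9 root hair genes, 2 fell in crn-3, 6 fell in clv2-gabi and 5 rose in cle40-2 in the authors' deposited tables. Their summed mean was 2053 in crn-3 against 2801 in Col-0, 1913 in clv2-gabi against 3020 in Col-0, and 3756 in cle40-2 against 3036 in Col-0. Of 8 endodermis genes, 7 rose in cle40-2 and none was called in crn-3 or clv2-gabi, in the authors' deposited tables. Their summed mean was 435 in crn-3 against 524 in Col-0, 454 in clv2-gabi against 564 in Col-0, and 1243 in cle40-2 against 567 in Col-0. Of 7 root cap genes, RCPG alone was called, higher in crn-3 (fold 1.73) and in clv2-gabi (fold 1.74), and none was called in cle40-2, in the authors' deposited tables. Their summed mean was 3534 in crn-3 against 2682 in Col-0, 3690 in clv2-gabi against 2893 in Col-0, and 2908 in both groups of the cle40-2 table. RCPG alone was at 1232 in crn-3 against 712 in Col-0, and at 1339 in clv2-gabi against 768 in Col-0. The median folds of the root cap list were 1.17 in crn-3, 1.14 in clv2-gabi and 1.02 in cle40-2. No gene of these 4 lists was at 0 in any mutant.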

How the data were processed

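Root tip RNA was sequenced in 11 samples of 4 groups, assigned from the labels. Per the submitters' processing notes, the tools were CASAVA 1.8.2 and DESeq (no version stated) and the build was TAIR10. The sources used here do not give the aligner, the counter, its treatment of strand or the method of p adjustment.

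The values per group were deposited by the authors as means of normalised counts rounded to whole numbers, and they were treated as scores that enter no count model. The fold change was deposited by the authors as a ratio, mutant mean over Col-0 mean, and the adjusted p-values were deposited with 3 decimals, per the file headers. No column was left unmapped (0). Nothing in the labels says that replicates are separate cultures; the deposited p-values therefore rest on the spread among these samples only, possibly technical.

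Values were read with Python 3.11.15, pandas 2.3.3 and numpy 2.4.6, and drawn with matplotlib 3.10.9. Log2 changes were log2((mutant mean + 1) / (Col-0 mean + 1)), a scale on which changes of low genes are too small. Median folds are median log2 changes turned back into ratios, so they can differ slightly from the median of the deposited folds. Levels were compared between genes per kb of merged exons. Of the 28495 identifiers, 27996 matched a gene with coordinates in TAIR10.1, the source of symbols, products, positions and promoters, and 499 did not. Coding sequences were aligned with Biopython 1.88. The counting steps were tested on simulated data.

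The members and the 12 lists were chosen with earlier results of these data known. In all, 1 list entry annotated as a pseudogene was dropped. Named genes were the 7 members, the 3 tailoring candidates and the other oxidosqualene cyclases whatever their values. Up to 4 called genes per other list and mutant could also be named, by smallest adjusted p with ties to the larger fold, together with called neighbours. The last were the 5 genes nearest to each cluster's median in the 3 log2 changes, among 15784 genes with a Col-0 mean of at least 50. CLE40, CLV2 and CRN, the epidermal patterning genes and CYP710A1 were named outside this rule, after their values were seen. Other settings for the threshold, the pseudocount, the scaling, the filter on low means and the number of neighbours were tried.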

Additional observations from a re-analysis of the deposited data

How the results depend on the processing

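At an adjusted p under 0.01 in place of 0.05, 65 genes were called in crn-3 in place of 100, and 287 in clv2-gabi in place of 434, which follows from the stricter threshold. Among the 7 members, CYP705A12 in clv2-gabi and THAS1 in cle40-2, both with an adjusted p of 0.016 in the authors' deposited tables, were then no longer called. At an adjusted p under 0.1 the members called were 1 higher in crn-3, 1 higher in clv2-gabi, and 1 higher and 4 lower in cle40-2, the numbers found at 0.05. Over 5 alternatives each (a pseudocount of 0.5 or 5, either scaling, and the filter on low means) the median log2 change of the thalianol genes was 0.05 to 0.07 in crn-3, 0.07 to 0.12 in clv2-gabi and -0.51 to -0.48 in cle40-2. That of the marneral genes was 0.32 to 0.34 in crn-3, 0.39 to 0.45 in clv2-gabi and -0.26 to -0.23 in cle40-2. The filter removed no member, and the other settings can move genes at these means only slightly. The narrow ranges therefore say little about how firm the medians are. With 5 genes on each side of the marneral cluster, 0 neighbours were called in clv2-gabi and 0 in cle40-2; with 20 on each side, 2 were called in cle40-2. No paired analysis was possible because the deposited tables hold group means only. For the same reason no replicate could be left out, so dependence on 1 library was not tested. The depth of the samples is unknown, which limits most the genes with low means, CYP705A12 and AT5G47980.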

Other observations

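Of 22 other P450 genes of the CYP705A subfamily, the subfamily of CYP705A5 and CYP705A12, 2 fell in cle40-2 and none rose, of 21 tested in the authors' deposited table. Of all genes tested in cle40-2, 1.94% were called lower and 3.21% higher, and nothing is read from these small counts. CYP705A28 was at 109 in cle40-2 against 187 in Col-0 (fold 0.58, adjusted p of 0.008 in the authors' deposited table). CYP705A19 was at 775 in cle40-2 against 1106 in Col-0 (fold 0.70, adjusted p of 0.019 in the authors' deposited table). In crn-3 and clv2-gabi none of the 22 was called, and their median folds were 1.06 in crn-3, 1.08 in clv2-gabi and 0.937 in cle40-2 in the authors' deposited tables. With 0.439% of all genes tested called in crn-3 and 1.89% in clv2-gabi, the lack of calls there says little.

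The 5 genes nearest to the median pattern of the thalianol cluster, by Euclidean distance over the 3 log2 changes among 15784 genes, were AT1G52370, AT2G29910, AT2G33620, ATS2 and AT3G17680. AT1G52370, annotated as a ribosomal protein L22p/L17e family protein, had folds of 1.04 in crn-3, 1.04 in clv2-gabi and 0.70 in cle40-2 in the authors' deposited tables. CYP708A2 had 14 genes outside the cluster nearer to that median than itself, THAS1 had 27, CYP705A5 had 284 and AT5G47980 had 14760. For the marneral cluster the nearest were AT1G72120, AT1G33080, AT1G75295, AT5G25630 and RCK, while its own genes lay far from their median: 10203 genes were nearer than CYP71A16, 14875 nearer than MRN1 and 15655 nearer than CYP705A12. The 3 log2 changes share their Col-0 samples, so this likeness is a description only.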
